A study of Mus musculus with 7 samples.

Results

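The interleukin-1 (IL-1) family genes described here are Il1a, Il1b, Il1rn, Il18, Il18bp, Il1r1, Il1r2, Il1rap, Casp1 and Nlrp3, 10 of the 48440 genes in each deposited table, chosen by gene name. They were read in 7 RNA-seq libraries of dendritic cells (DCs) sorted from the mediastinal lymph node, which drains the lung, of B6 mice, an inbred laboratory strain. These were the CD11b+ migratory DCs: the sort kept cells with CD11c, CD11b and much MHC class II, and removed those with CD103, CD64 or B220. All animals, adults and infants alike, had been sensitized through the nose 24 hours earlier with house dust mite allergen (HDM) together with lipopolysaccharide (LPS), and there were no untreated mice among the libraries. The adult group had 3 libraries from mice 7 weeks old and the infant group 4 libraries from mice 2 to 3 weeks old. The deposited table of adult 3 carries an internal name of another pattern than the other 6, and it was kept in the adult group that its labels give. The labels name no genetic change and do not give the number of mice behind a library, so p-values here measure only how these libraries vary.

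IL-1 alpha and IL-1 beta are inflammatory cytokines that bind the same receptor, and both are made by myeloid cells after LPS. The IL-1 beta and IL-18 precursors are inactive until caspase-1 cuts them, and caspase-1 is itself switched on by inflammasomes such as the one built on the sensor NLRP3, so the mRNA level of the cytokine says nothing by itself about released cytokine. The pathway is restrained at several steps: the IL-1 receptor antagonist (Il1rn) blocks the receptor, IL-1 receptor type 2 (Il1r2) binds IL-1 without signalling, and IL-18 binding protein (Il18bp) captures IL-18. The study compared infant with adult DCs to find genes and pathways that differ between the ages.

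Exon reads numbered 20064331 to 22316484 in the adult libraries and 18022302 to 20377361 in the infant libraries. Itgax (CD11c) lay at 26.7 to 72.9 CPM (read counts scaled to the exon reads of each library), Ccr7, a chemokine receptor needed for migration to the node, at 4599 to 6392 CPM, and all 12 genes listed for the sorted cells had reads in every library. For 3 of the 12 every infant lay below every adult, Ccr7 (4599 to 5218 against 5518 to 6392 CPM), Flt3, a growth factor receptor of DCs (147 to 355 against 405 to 441 CPM), and Zbtb46, a transcription factor of classical DCs (163 to 201 against 217 to 242 CPM), where 7.58% of all genes tested did so. Infant 2 stood apart, at 65.7 on a first principal component that held 36.5% of the variance, against -22.3 to 8.59 in the other 6 libraries, and it had 13539 CPM of the nuclear RNA Malat1 against 3058 to 4411 CPM elsewhere. Every infant library held Xist reads together with reads of Y-linked genes, while each adult library held those of 1 sex almost alone.

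Il1a and Il1b are neighbours on chromosome 2 (minus strand), spanning 129299610 to 129309972 and 129364570 to 129371139 in mm10, with 54597 bases and no protein-coding gene between them. Il1rn lies on the plus strand of the same chromosome, from 24336853 to 24351494. The 250 bases before the start of these 3 genes are shown because Il1b and Il1a had the most separated levels in the 2 age groups, and Il1rn is their antagonist. The sequences are those of RefSeq, build GRCm38.p6, 5′ to 3′ on the strand of the gene, at chr2:129371140-129371389 for Il1b, chr2:129309973-129310222 for Il1a and chr2:24336610-24336859 for the first of 3 Il1rn starts. Capitals mark matches on either strand to TATAAA, to the AP-1 letters TGANTCA and to the C/EBP letters TTNCNNAA.
Il1b: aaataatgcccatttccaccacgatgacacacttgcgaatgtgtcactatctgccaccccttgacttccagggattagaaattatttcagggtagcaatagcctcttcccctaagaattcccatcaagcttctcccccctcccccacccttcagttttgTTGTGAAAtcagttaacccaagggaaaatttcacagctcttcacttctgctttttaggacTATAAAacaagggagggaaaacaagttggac
Il1a: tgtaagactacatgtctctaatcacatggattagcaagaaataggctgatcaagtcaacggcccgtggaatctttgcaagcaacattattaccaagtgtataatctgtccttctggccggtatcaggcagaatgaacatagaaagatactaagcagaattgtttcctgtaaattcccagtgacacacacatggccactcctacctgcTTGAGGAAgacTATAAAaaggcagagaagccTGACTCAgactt
Il1rn: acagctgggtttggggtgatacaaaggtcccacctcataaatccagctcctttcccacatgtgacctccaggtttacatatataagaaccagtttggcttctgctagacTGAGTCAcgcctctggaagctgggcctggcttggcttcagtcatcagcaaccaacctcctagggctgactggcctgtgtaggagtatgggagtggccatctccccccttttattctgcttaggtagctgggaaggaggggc
Il1b and Il1a each held TATAAA, its first base at -31 and -32 counted back from the start, and each held 1 C/EBP match, at -91 and -43. Il1a also had an AP-1 match at -12 and Il1rn one at -141, and no match in these 3 windows overlapped another. The files' own start of Il1rn lies within the last bases of its window. None of the 3 windows matched the NF-kB consensus. Of the 32851 RefSeq windows of this length, 12.4% held TATAAA, 6.75% the AP-1 letters, 36.8% the C/EBP letters and 3.9% the NF-kB consensus. All 10 genes had at least 1 window, 14 in all, and the NF-kB consensus matched 1 window each of Il1r1 and Nlrp3. Windows 2 and 3 of Il1rn, not shown, differed from its first. They had no AP-1 match, and held 1 and 3 C/EBP matches, where the first had none. Which Il1rn start these cells use was not tested. These are matches of letters and were not tested as binding sites.

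Per kilobase of exon, these DCs had abundant mRNA for IL-1 beta, its antagonist and caspase-1, and little mRNA for the signalling IL-1 receptor or for NLRP3. The authors' RPKM values (reads scaled to exon length and library size) compare genes of different length. In adults Il1b stood first at 100.5 ± 7.20 RPKM (SD, n = 3), followed by Il1rn at 87.0 ± 10.8, Casp1 at 61.5 ± 5.27, Il18bp at 51.2 ± 17.9 and Il18 at 22.4 ± 1.87 RPKM. In infants Il1rn stood first at 65.9 ± 12.5 RPKM (SD, n = 4), then Casp1 at 64.1 ± 9.20, Il1b at 52.1 ± 22.5, Il18bp at 37.4 ± 8.60 and Il18 at 22.4 ± 4.73 RPKM. The ranges of Il1b and Il1rn overlapped in adults, as did those of Casp1 and Il18bp, and in infants the first 4 genes each overlapped the next. Il1r2 and Il1a followed, at 5.35 ± 3.76 and 4.03 ± 0.834 RPKM in adults and 5.57 ± 2.55 and 2.40 ± 0.515 RPKM in infants. At the bottom were Il1rap, Nlrp3 and Il1r1, with adult means of 0.348, 0.313 and 0.264 RPKM and infant means of 0.322, 0.211 and 0.147 RPKM, and neighbours among these overlapped in both groups.

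**Figure D1:**
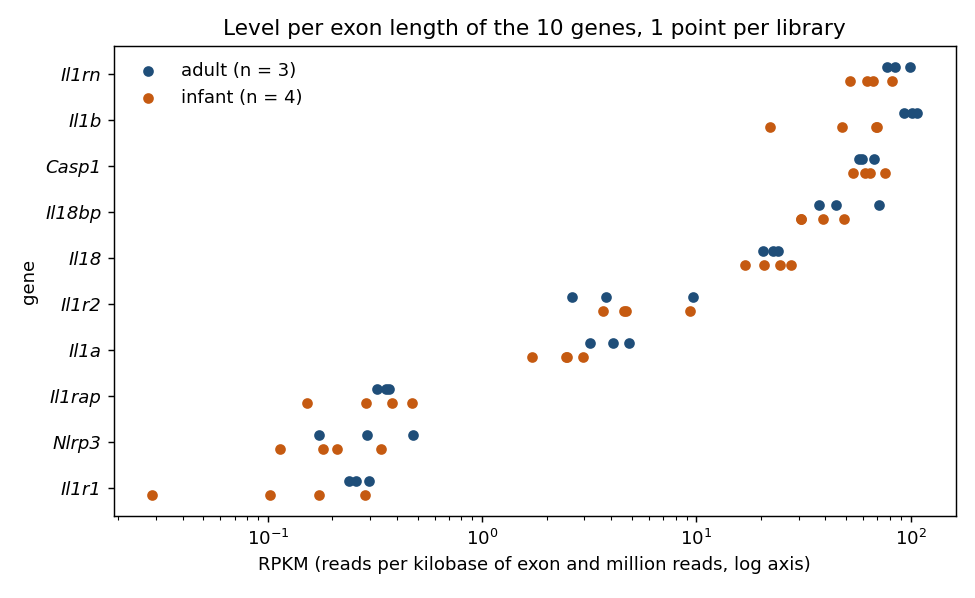
Level of the 10 genes in RPKM on a log axis, 1 point per library, blue for the 3 adult and orange for the 4 infant libraries. The 5 genes Il1b, Il1rn, Casp1, Il18bp and Il18 lie above 16 RPKM in every library, while Il1rap, Nlrp3 and Il1r1 stay below 0.5 RPKM.

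Between the ages, exon reads were tested for all 12261 genes that were measured well enough, with edgeR's quasi-likelihood test and Benjamini-Hochberg adjustment over all of them. None of the 10 members passed a threshold of 0.05 by edgeR, by DESeq2 or under any of the other alternatives, against 2 genes (0.0163%) called over all genes by edgeR and 181 of 12582 (1.44%) by DESeq2. Il1a and Il1b had an unadjusted p under 0.05, 2 of 10 members where 13.3% of all genes did. The same 2 were the members whose infant libraries all lay below all adult libraries, where 7.58% of all genes did so, and no member had all infants above all adults, where 7.97% did (15.5% either way). The median log2 fold change of the members, infant over adult, was -0.40, with 7 below 0 and 3 above, and that of all genes was 0.0016.

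Il1b, the main secreted IL-1 of myeloid cells, was the member with the widest exon fold change. Its level was 205, 215 and 186 CPM in adults 1 to 3 and 137, 47.5, 143 and 96.7 CPM in infants 1 to 4. Every infant library lay below the lowest adult library, and infant 2 was lower than the other infants. The means were 202 ± 14.5 CPM (SD, n = 3) and 106 ± 44.1 CPM (SD, n = 4), a level 1.91-fold higher in adults (log2 fold change -0.93, SE 0.30, edgeR adjusted p = 0.304 and 0.0839 by DESeq2). Without infant 2 the log2 fold change was -0.69 (SE 0.14, edgeR adjusted p = 0.122), and without adult 3 it was -0.99 (SE 0.36, edgeR adjusted p = 0.540). These values rest on 4570, 4766 and 3800 reads in adults and 2890, 903, 2507 and 1817 in infants, of which 62.6% crossed an exon junction and 99.3% mapped to 1 place.

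Il1a, which acts without cutting by caspase-1 and signals through the same receptor as IL-1 beta, was lower in level than Il1b in every library. It stood at 6.69, 8.43 and 10.1 CPM in adults and at 5.02, 5.57, 6.33 and 3.57 CPM in infants. The highest infant, infant 3, was just under the lowest adult, adult 1. The log2 fold change was -0.71 (SE 0.25, edgeR adjusted p = 0.317), and without adult 3 it was -0.56 (SE 0.29, edgeR adjusted p = 0.561). Only 36.7% of its 931 exon reads mapped to 1 place, so part of this level can belong to other places in the genome. With unique reads alone, 56, 76 and 75 in adults and 36, 37, 40 and 22 in infants, the log2 fold change was -0.86 (SE 0.32, edgeR adjusted p = 0.317).

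Il18, the other caspase-1 substrate among the cytokines, had nearly the same mean in both groups. It lay at 15.5, 17.05 and 18.1 CPM in adults and at 18.04, 13.6, 21.5 and 15.5 CPM in infants. The infants spread to both sides of the adults. Infant over adult, the log2 fold change was 0.02 (SE 0.18, edgeR adjusted p = 0.962), and its sign turned with the unit and with the library left out.

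The antagonists were at lower mean levels in infants, with groups that overlapped. Il1rn had 259, 323 and 276 CPM in adults and 201, 236, 278 and 172 CPM in infants, where infant 3 lay above adults 1 and 3. Its log2 fold change was -0.37 (SE 0.17, edgeR adjusted p = 0.386). Of its exon reads 20.3% crossed a junction, the lowest share of the 10 genes, and the tables do not separate its secreted from its intracellular forms.

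Il18bp had 144, 119 and 227 CPM in adults and 121, 106, 161 and 98.4 CPM in infants. Adult 3 and infant 3 were the highest of their groups. Its log2 fold change was -0.43 (SE 0.23, edgeR adjusted p = 0.433), and without adult 3 it was -0.11 (SE 0.21). The same libraries had the highest summed level of macrophage markers, 1136 CPM in adult 3 and 1477 CPM in infant 3 against 539 to 919 CPM in the others, and of monocyte markers, 479 and 563 CPM against 223 to 406 CPM. The part of these cells in the Il18bp level was not tested.

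**Figure D2:**
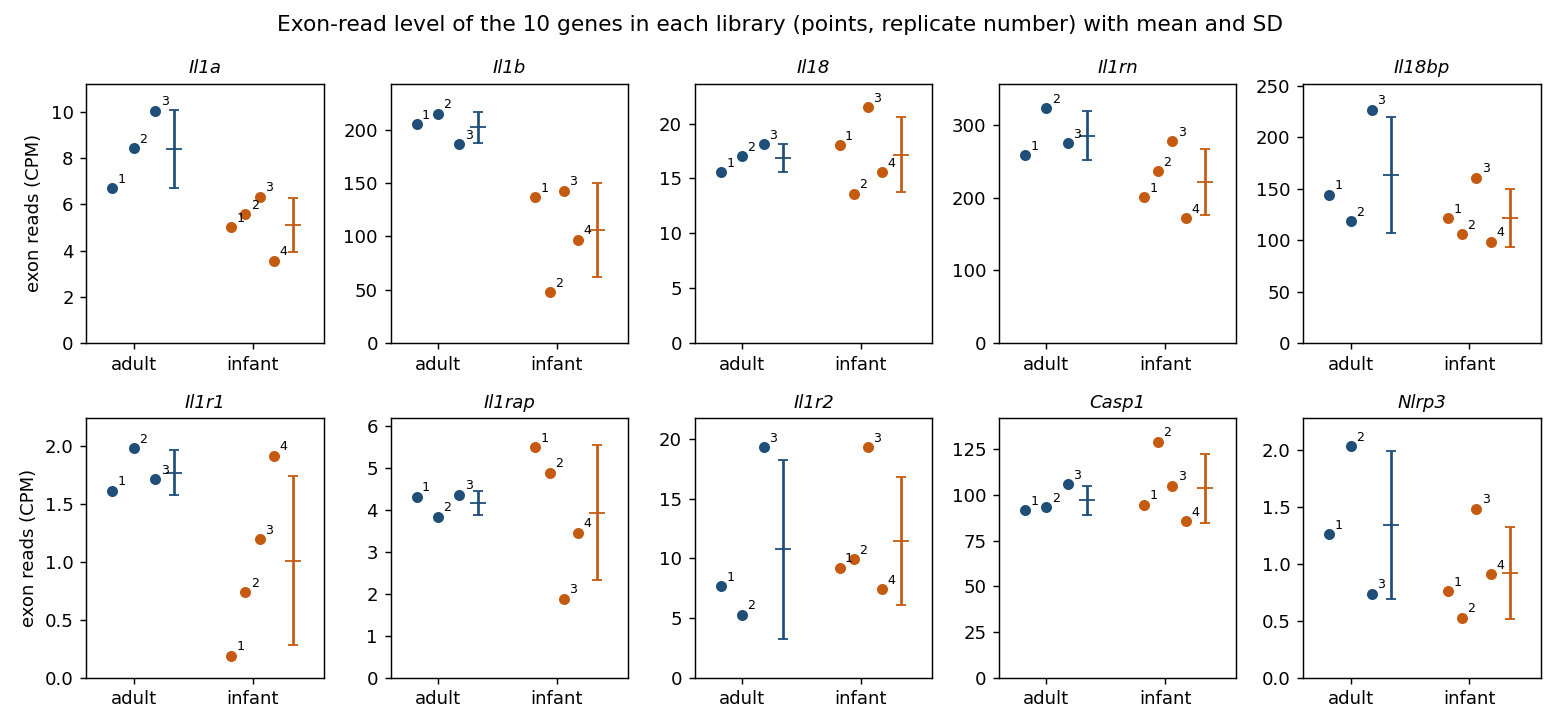
Exon reads of each gene in CPM, 1 point per library with its replicate number, with the group mean and SD beside the points (3 adult libraries in blue, 4 infant libraries in orange). For Il1a and Il1b all infant points lie below all adult points, and in the other 8 panels the groups overlap.

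The signalling receptor had few reads. Il1r1, which binds IL-1, had 36, 44 and 35 exon reads in adults and 4, 14, 21 and 36 in infants. Adults lay close together at 1.62 to 1.98 CPM, while infants ran from 0.189 CPM in infant 1 to 1.92 CPM in infant 4. Its log2 fold change was -0.82 (SE 0.60, edgeR adjusted p = 0.541), and without infant 1 it was -0.46 (SE 0.43). The range among infants was wider than the difference between the group means.

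Il1rap, the accessory chain that the IL-1 receptor needs to signal, stood at 3.83 to 4.36 CPM in adults and at 5.49, 4.89, 1.88 and 3.46 CPM in infants 1 to 4. Infants 1 and 2 were above and infants 3 and 4 below every adult. Its log2 fold change was -0.08 (SE 0.35) on all exon reads and 0.35 (SE 0.38) on unique reads, since 53.2% of its reads mapped to 1 place, 40.6% to 51.8% in adults and 50.8% to 72.7% in infants. No direction can therefore be given for Il1rap.

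Il1r2, the decoy receptor, was expressed above the signalling receptor in all 7 libraries. It had 7.68, 5.28 and 19.3 CPM in adults and 9.23, 9.94, 19.3 and 7.40 CPM in infants. Adult 3 and infant 3 again stood above the rest of their groups. On exon reads the log2 fold change was 0.09 (SE 0.45, edgeR adjusted p = 0.937), and it turned negative without adult 1, adult 2 or infant 3.

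Of the inflammasome members, the protease was abundant and the sensor scarce. Casp1, the protease that cuts IL-1 beta and IL-18, had 91.9, 93.3 and 106 CPM in adults and 94.7, 129, 105 and 85.6 CPM in infants. Infant 2, the library lowest in Il1b, was the highest in Casp1. Its log2 fold change was 0.10 (SE 0.15, edgeR adjusted p = 0.798), and -0.03 (SE 0.11) without infant 2. Nlrp3, the sensor, had 28, 45 and 15 exon reads in adults and 16, 10, 26 and 17 in infants, with a log2 fold change of -0.55 (SE 0.51, edgeR adjusted p = 0.625) that was -0.13 (SE 0.61) without adult 2.

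Reads in introns come mostly from RNA that has not yet been spliced, and they gave a second readout of the same genes in the same libraries. Intron reads were 4.45% to 6.36% of exon and intron reads per library, highest in adult 2. With 9602 genes tested, 8 of the members passed the filter on low counts. None of the 8 passed the threshold by edgeR, where 52 genes (0.542%) did over all genes. An unadjusted p under 0.05 was reached by 4 of the 8, Il1b, Il1r2, Il1rn and Nlrp3, all lower in infants, where 6.64% of all genes were lower and 4.75% higher with such a p. With either sign, 11.4% of all genes had one. The groups did not overlap for 3 of the 8, Il1b, Il1r2 and Nlrp3, where 6.29% of all genes had infants below adults in this way, 4.94% had them above, and 11.2% either. The median log2 fold change of the 8 was -0.83, against 0.019 for all genes. Il1r2 reached the filter only with its adult libraries, where its intron reads were high. Of the members left out, Il1r1 had more intron reads in infants and Il1a fewer. The counts out of 8 and the median therefore depend on the filter, and they only describe the members that passed it.

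Il1b had 231, 339 and 138 intron reads in adults and 103, 34, 80 and 80 in infants. As CPM of intron reads these were 203, 233 and 127 in adults and 88.1, 32.4, 95.1 and 84.1 in infants, so every infant was again below every adult. The log2 fold change was -1.33 (SE 0.31, edgeR adjusted p = 0.0659), which passed with DESeq2 (adjusted p = 0.0126) and in edgeR without infant 1 (adjusted p = 0.0385) and with no filter on low counts (adjusted p = 3.5e-05). Over all genes DESeq2 called 152, edgeR without infant 1 131 and edgeR with no filter 271, against 52 in the main fit. Without infant 2 the Il1b value was -1.08 (SE 0.24, edgeR adjusted p = 0.0539), and without adult 3 -1.55 (SE 0.33, edgeR adjusted p = 0.114). It was weakest without adult 2, the library highest in intron share, at -1.14 (SE 0.35, edgeR adjusted p = 0.356). The edgeR adjusted p was 0.155 without adult 1 and 0.136 with the replicate block. The antisense gene Il1bos overlaps Il1b on the other strand and had 27 to 71 exon reads per library. No source used here says whether reads were counted by strand, so reads of the pair cannot be told apart. The same limit holds for Il18bp, which overlaps Numa1 (817 to 894 exon reads in adults and 290 to 640 in infants). It also holds for Il1a, which overlaps Gm14023 (1 to 14 exon and 10 to 42 intron reads per library). How many of those reads fall within the members is not known.

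Among the 8 members tested, Il1r2 had the largest difference between its intron and exon fold changes. It had 32, 60 and 13 intron reads in adults and 5, 11, 7 and 4 in infants. Adults 1 and 2 were high and adult 3 was just above the highest infant, at 11.99 against 10.5 CPM of intron reads. The intron log2 fold change was -1.99 (SE 0.54, edgeR adjusted p = 0.116, and 0.0261 with no filter on low counts), beside 0.09 from exon reads. Intron reads made up 15.8%, 33.9% and 3.19% of the exon and intron reads of Il1r2 in adults and 2.02% to 5.50% in infants. In 1 model over both kinds of read, with library as a term, the intron fold change was lower than the exon fold change by 2.23 on the log2 scale (-2.23, SE 0.75, unadjusted p = 0.00941, edgeR adjusted p = 0.319 over 8971 genes), and by less without adult 2 (-1.39). That model was chosen after the intron values had been seen. No member passed in it, 1 of 8 had an unadjusted p under 0.05, and over all genes 0.0334% passed and 10.6% had such a p.

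Il1rn had 96, 102 and 47 intron reads in adults and 7, 47, 17 and 36 in infants, an intron log2 fold change of -1.28 (SE 0.46, edgeR adjusted p = 0.263, and 0.0261 with no filter on low counts). Infant 2 reached 44.8 CPM of intron reads, just above adult 3 at 43.3, and infant 1 was lowest at 5.99. Nlrp3 had 18, 47 and 33 intron reads in adults and 18, 12, 13 and 11 in infants, an intron log2 fold change of -0.96 (SE 0.43, edgeR adjusted p = 0.406). Intron reads of this gene made up from 33.3% of its exon and intron reads in infant 3 to 68.8% in adult 3.

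Of the other members, Casp1 had an intron log2 fold change of -0.10 (SE 0.22), Il18 of -0.04 (SE 0.54), Il18bp of -0.69 (SE 0.61) and Il1rap of 0.27 (SE 0.44). Il1a did not pass the filter, with 9, 10 and 11 intron reads in adults and 0, 0, 2 and 4 in infants, where a count of 0 allows up to 3 reads. Il1r1 did not pass either, with 0, 6 and 1 intron reads in adults and 15, 2, 7 and 8 in infants. Intron reads were 0%, 12% and 2.78% of its exon and intron reads in adults and 78.9%, 12.5%, 25% and 18.2% in infants. Every infant share was above every adult share, with adult 2 and infant 2 almost equal and no test. No share of all genes that separate in this way is given here. The mean share of Il1r2 went in the opposite direction, with groups that overlapped.

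**Figure D3:**
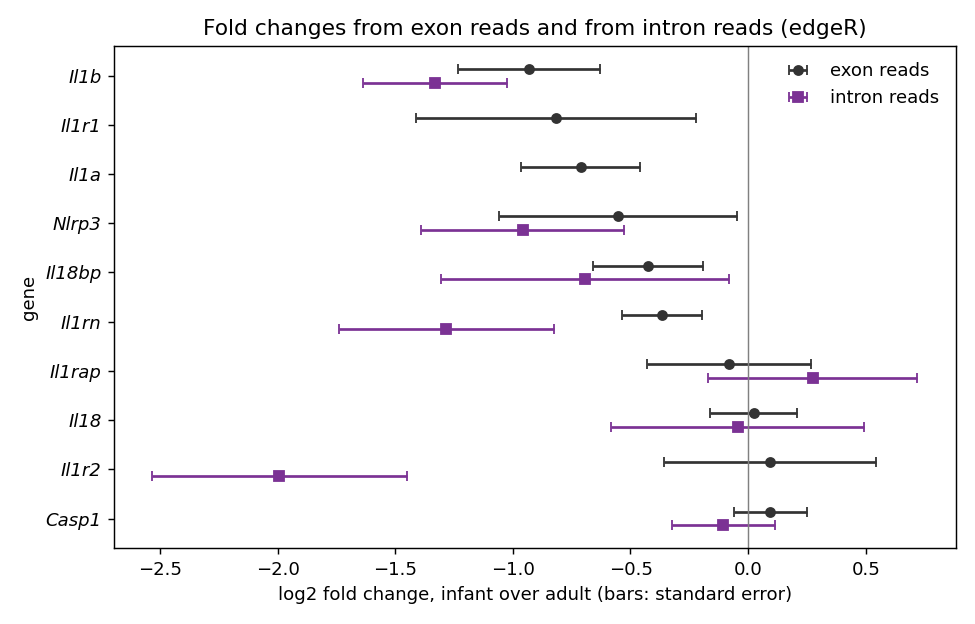
Log2 fold change of infant over adult with its standard error, from exon reads (circles, 10 genes) and from intron reads (squares, the 8 genes that passed the filter). The intron values of Il1r2, Il1b and Il1rn, at -1.99, -1.33 and -1.28, lie furthest to the left, while Casp1 and Il18 stay near 0 in both.

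**Figure D4:**
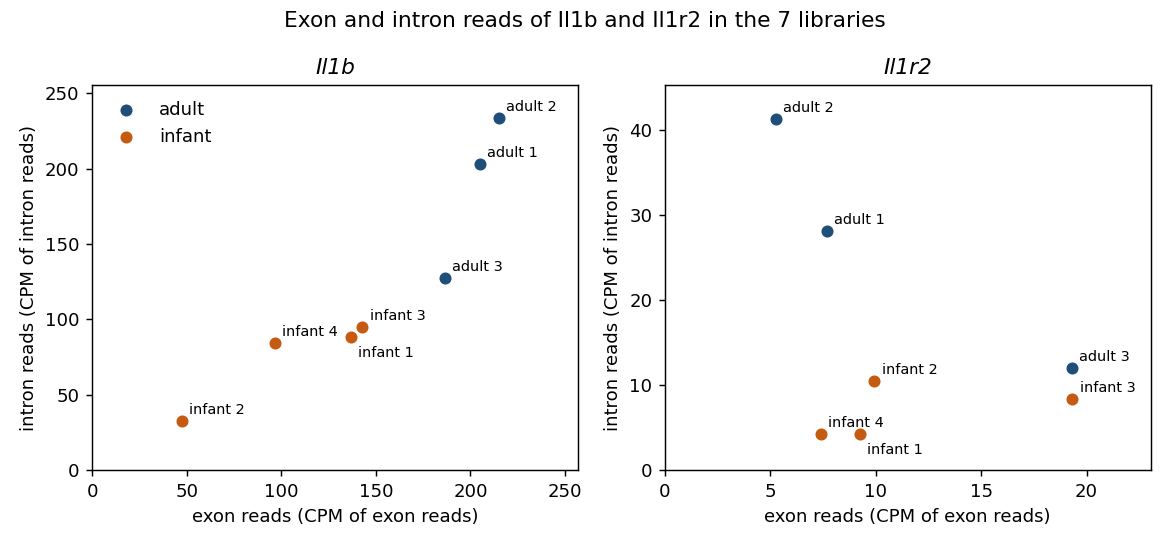
Exon reads in CPM of exon reads (x axis) against intron reads in CPM of intron reads (y axis) for Il1b and Il1r2, 1 labelled point per library. For Il1b adults lie above infants on both axes, while for Il1r2 the groups overlap on the x axis and adults 1 and 2 stand apart on the y axis.

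Ratios of RPKM within a library compare agonist with antagonist without a scaling factor. With 3 against 4 libraries there are 35 ways to split them, the smallest two-sided p of the exact permutation test is 0.0571, and 5 ratios were tested, so no ratio could pass. Il1b to Il1rn was 1.297, 1.09 and 1.11 in adults and 1.11, 0.328, 0.841 and 0.921 in infants. Adults thus had more Il1b than Il1rn per exon length in all 3 libraries, and infants in 1 of 4. Infant 1 lay within the adult range, so the groups overlapped. In CPM, which is not scaled to exon length, Il1rn exceeded Il1b in every library. The mean log2 ratio differed by -0.67 between infants and adults (exact permutation p = 0.171, adjusted p = 0.286), and by -0.28 without infant 2.

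For Il1a to Il1rn the ratio was 0.0408, 0.0412 and 0.0576 in adults and 0.0395, 0.0372, 0.0360 and 0.0328 in infants. Its groups did not overlap, with a difference in mean log2 ratio of -0.34 (exact permutation p = 0.0571, the smallest possible, adjusted p = 0.286), which was -0.18 without adult 3. Il1b to Il1a differed by -0.33 (exact permutation p = 0.743), Il18 to Il18bp by 0.40 (exact permutation p = 0.171) and Il1r1 to Il1r2 by -1.45 (exact permutation p = 0.229), all with groups that overlapped. Single libraries moved the last 2 values: Il18 to Il18bp was 0.19 without adult 3 and 0.61 without adult 2. Il1r1 to Il1r2 was -0.86 without infant 1 and -0.96 without adult 2, and -0.85 with 0.1 RPKM added to both genes. Il1r2 exceeded Il1r1 in every library, with Il1r1 at 0.00615 to 0.113 of the Il1r2 level per exon length.

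**Figure D5:**
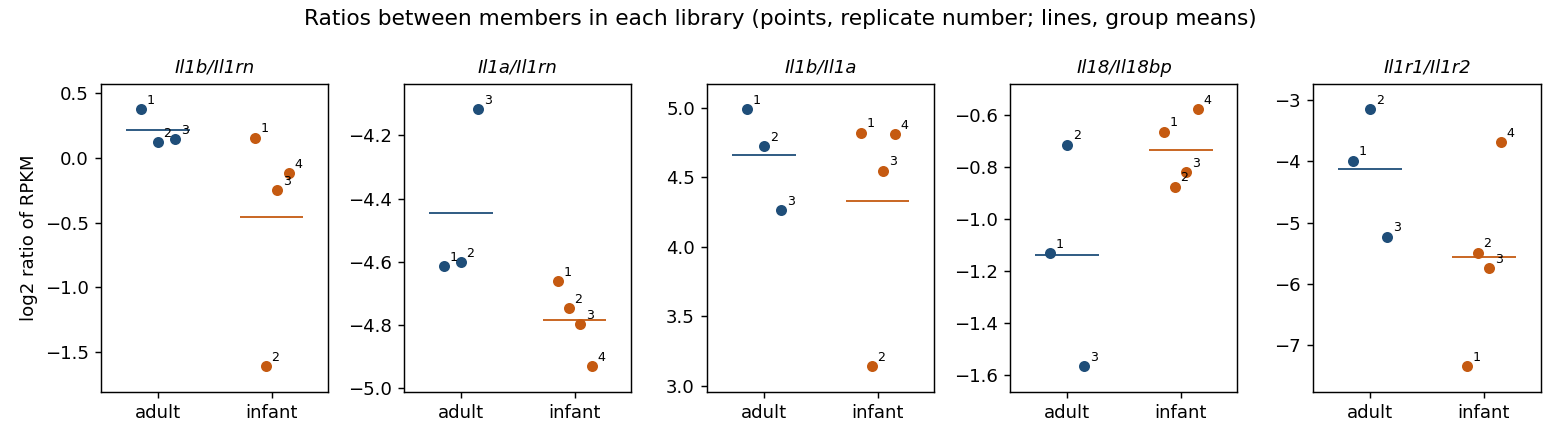
Log2 ratio of RPKM for 5 pairs of members, 1 point per library with its replicate number and a line at the group mean (3 adult libraries in blue, 4 infant libraries in orange; the y axes differ and do not start at 0). Only Il1a to Il1rn separates the groups, and infant 2 lies far below the other infants for Il1b to Il1rn and Il1b to Il1a.

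Across the 7 libraries Il1a varied most like Il1rn among the members, with Pearson's r of log2 CPM of 0.89, and Il1b most like Nlrp3, with r of 0.70, while Il1b and Casp1 had r of -0.61. These values describe 7 libraries that differ in age and quality, and infant 2 is the lowest of the 7 in Il1b and the highest in Casp1. Among 7793 other genes, those most like Il1b were 9930111J21Rik1, Zfp12, Sema4d, Nol9 and Itgb7 (r from 0.978 to 0.988, and from 0.920 to 0.958 without infant 2). Those most like Il1a were Ext1, G3bp2, Amica1, Pla1a and Ccr7 (r from 0.965 to 0.975, over 7794 genes). Those most like Nlrp3 were Abcf1, Spg7, Toe1, Srf and Faap100 (r from 0.93 to 0.97), and Nlrp3 had only 10 to 45 exon reads per library. The highest of so many r values over 7 libraries can be this high by chance, and no p was computed.

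The wider pathway was read from 5 lists. Of 62 genes in the lists, 49 could be tested, none passed by edgeR, and 12 had an unadjusted p under 0.05, 11 lower and 1 higher in infants, where 6.73% and 6.53% of all genes did. That count was 5 without adult 3 and 17 without infant 1. Of the 11 lower, 8 were in the list of genes that IL-1 induces, where 12 could be tested. Each of the other lists held at most 1. Among other IL-1 family cytokines, Il33, an alarmin usually made by barrier and stromal cells, had 1.12, 1.04 and 0.932 CPM in adults and 0.331, 2.31, 1.197 and 1.12 CPM in infants, which overlapped. The IL-36 cytokine genes Il1f6 and Il1f8, the IL-36 antagonist gene Il1f5 and Il1f10 had 0 reads in all libraries, and Il1f9 had 11 in all.

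Of the other receptors, 4 of 7 could be tested and 1 had an unadjusted p under 0.05, where 13.3% of all genes did. Il18rap, the accessory chain of the IL-18 receptor, had 3.55, 1.71 and 2.60 CPM in adults and 1.61, 0.105, 1.197 and 0.905 CPM in infants (log2 fold change -1.45, SE 0.62, edgeR adjusted p = 0.359). Its infants all lay below its adults, where 7.58% of all genes did so. The 5 natural killer cell markers, a cell type that expresses this receptor, summed to 10.1 to 34.4 CPM in adults, highest in adult 1, and to 4.45 to 13.6 CPM in infants, and their part in the Il18rap level was not tested. Il18r1, the binding chain, had a log2 difference of -0.63 (SE 0.65). Sigirr, a receptor of the family that dampens signalling, had means of 79.7 ± 5.55 CPM in adults and 87.4 ± 18.2 CPM in infants. Il1rl1, the IL-33 receptor, had 5 reads in all libraries.

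Of 19 inflammasome partners, 17 could be tested, with a median log2 fold change of -0.08. An unadjusted p under 0.05 was reached by 1 of the 17, where 13.3% of all genes had one. That gene was Mefv, which encodes pyrin, another inflammasome sensor, at 27.0 ± 2.87 CPM in adults and 17.3 ± 5.11 CPM in infants (log2 fold change -0.65, SE 0.23, edgeR adjusted p = 0.317). Every infant lay below every adult for Mefv, where 7.58% of all genes did so. Naip5 and Naip6, sensors of bacterial flagellin, had log2 fold changes of -0.43 (SE 0.27) and -0.55 (SE 0.36).

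All 15 genes that relay the signal inside the cell could be tested, with 1 lower and 1 higher at an unadjusted p under 0.05. Of all genes, 6.73% were lower and 6.53% higher with such a p, 13.3% either way. The median log2 fold change of the 15 was -0.08. Traf6, a ubiquitin ligase below MyD88, was at 110 ± 7.31 CPM in adults and 74.8 ± 18.8 CPM in infants (log2 fold change -0.55, SE 0.19). Tab1, a partner of the kinase TAK1, had 16.2 ± 2.77 CPM in adults and 24.4 ± 4.89 CPM in infants (log2 fold change 0.59, SE 0.20). The edgeR adjusted p was 0.311 for both. Irak4, the kinase recruited first by MyD88, had a log2 fold change of -0.35 (SE 0.20).

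Among 15 genes that IL-1 is known to induce in other cells, 12 could be tested, all 12 had a log2 fold change below 0, and 8 had an unadjusted p under 0.05, where 6.73% of all genes were lower with such a p. The median was -0.70, against 0.0016 for all genes. DESeq2 called 3 of the 12, where it called 1.44% of all genes. They were Ptgs2, Cxcl2 and Lcn2, with a DESeq2 adjusted p of 4.57e-11, 0.00169 and 0.0222. The list was chosen with earlier results of these data known, so these counts describe its genes and do not test for an excess. LPS and TNF induce many of the same genes. Ptgs2, a prostaglandin synthase, had 8.53, 25.3 and 12.1 CPM in adults and 1.99, 0.736, 0.855 and 1.97 CPM in infants (log2 fold change -3.45, SE 0.46, edgeR adjusted p = 0.0605). Every infant lay far below every adult. The infants all lay below the adults for 5 of the 12, where 7.58% of all genes did so. For Cxcl2, a chemokine for neutrophils, the log2 difference was -2.61 (SE 0.58, edgeR's adjusted p = 0.200), again without overlap. For Lcn2, an iron-binding defence protein, it was -2.18 (SE 0.64, edgeR's adjusted p = 0.283), with groups that overlapped. Lcn2 had 3.10, 7.62 and 24.7 CPM in adults, by far the highest in adult 3, and 3.60, 1.31, 4.05 and 1.44 CPM in infants.

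Immediate-early and heat-shock genes, which respond within minutes to stimulation and to cell handling, are given beside these values. Their 16 genes summed to 6842 to 7261 CPM in adults and 2200 to 3737 CPM in infants, with 11 of 14 tested below an unadjusted p of 0.05, all lower, where 6.73% of all genes were. DESeq2 called 5 of the 14, where it called 1.44% of all genes. For 7 of the 14 every infant lay below every adult, where 7.58% of all genes did so. The transcription factor genes Fos, Jun and Egr1 had log2 differences of -3.26 (SE 0.44), -1.04 (SE 0.17) and -1.85 (SE 0.33). Their edgeR adjusted p was 0.0605, 0.141 and 0.155, and their DESeq2 adjusted p 4.75e-05, 4.75e-05 and 6.20e-05. This list too was chosen with earlier results of these data known, so its counts do not test for an excess. The part of the immediate-early and heat-shock genes in the Il1b and Il1a values was not tested.

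Neutrophils, monocytes and macrophages also make IL-1 beta. The 10 neutrophil markers summed to 18.5 to 25.9 CPM in adults and 14.96 to 41.8 CPM in infants, most of it Csf3r, while Ly6g had 0 reads in all libraries and S100a8 and S100a9 were at or below 0.692 CPM. The 8 monocyte markers summed to 253 to 479 CPM in adults and 223 to 563 CPM in infants, and the 9 macrophage markers to 576 to 1136 and 539 to 1477 CPM. Infant 3 was highest in all 3 lists and was also the infant with the highest Il1b, 143 CPM, while adult 2 was the adult lowest in all 3 and had the highest Il1b, 215 CPM. Of 8 macrophage markers tested, 2 were lower and 1 higher in infants at an unadjusted p under 0.05 (all genes, 6.73% and 6.53%). DESeq2 called 2 of the 8 (all genes, 1.44%). Marco was lower in every infant than in any adult (2.32 to 7.68 against 8.34 to 27.1 CPM). Adgre1 was higher in every infant (65.9 to 79.5 against 48.9 to 59.3 CPM). The other macrophage markers tested overlapped between the groups, and 15.5% of all genes separated in either direction. The 5 plasmacytoid DC markers summed to 331 to 347 CPM in adults and 198 to 316 CPM in infants, without overlap of the sums. None of the 5 separated the groups alone or had an unadjusted p under 0.05, and the sum was lowest in infants 2 and 3, where Spib stood at 52.3 and 97.7 CPM against 140.1 to 172 CPM in the other libraries. Their part in the Il1b and Il1a values was not tested. B cell markers reached at most 48.7 CPM, T cell markers 11.5 CPM and mast cell and basophil markers 0.629 CPM in any library. In such bulk libraries fewer cells of a type and less RNA per cell cannot be told apart.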

How the data were processed

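RNA was sequenced from 7 sorted cell samples, grouped by the age in the labels. The deposited tables hold, per the file headers, read counts per gene in exons, across exon junctions and in introns, unique and total, and the authors' RPKM. Per the submitters' processing notes the build was mm10, with TopHat, TopHat2, Cufflinks, Cuffnorm and Cuffdiff named without their roles. No source used here names the program behind the tables, its annotation or its strand setting.

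Total exon read counts as deposited went through filterByExpr and TMM scaling into the quasi-likelihood test of edgeR 4.0.16 (robust glmQLFit, then glmQLFTest; R 4.3.3), p-values being adjusted by Benjamini-Hochberg over all genes tested. Intron read counts were fitted the same way. Each standard error is the log2 fold change over the root of its F statistic, and CPM uses TMM-scaled totals. In a library 3 reads correspond to 0.134 to 0.166 CPM before scaling, which covers counting error only. Replicates differed beyond sampling noise (chi-square over its degrees of freedom, 16.9 to 140). Alternatives were DESeq2 1.42.0, limma 3.58.1 (voom, and limma-trend on log2(RPKM + 1) or log2(RPKM + 0.1)), RLE or no scaling, other filters, unique reads, a replicate block and leaving out each library. The tests were tried on simulated counts.

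The members and lists were chosen with earlier results of these data known. All 10 members are named. Of each pathway list, up to 3 genes with the smallest p are named, and for Il1b, Il1a and Nlrp3 the 5 genes with the highest Pearson's r, among genes whose average log2 CPM reached 3. Itgam was taken as the first of its entries.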

Additional observations from a re-analysis of the deposited data

Results flagged for a closer look

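The log2 ratio of Il1b to Il1a in infant 2 was 3.14, against 4.55 to 4.82 in the other 3 infant libraries, a gap of 0.838 of the group's range, which is past the 95% critical value of Dixon's test for 4 samples. Of 25 such groups tested, 1 was singled out, and chance alone singles out about 1 in 20. Infant 2 is the library that stands apart on the first principal component, and its Il1b level, 47.5 CPM, was the lowest of the 7 while its Il1a level, 5.57 CPM, lay within the range of the other infants. The part of library quality in this ratio was not tested.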

How the results depend on the processing

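No member passed from exon reads under any of 18 alternatives. Over the alternatives that gave a value, the exon log2 fold changes stayed negative for Il1b (-1.11 to -0.69), Il1a (-0.86 to -0.56), Il1rn (-0.50 to -0.27), Il18bp (-0.61 to -0.11), Il1r1 (-1.54 to -0.14) and Nlrp3 (-0.88 to -0.11). Il1r1, Il1rap and Nlrp3 had no value where at least 5 CPM or 1 RPKM was required. Leaving out each library in turn, the value ran from -0.10 to 0.12 for Il18, from -0.27 to 0.82 for Il1r2, from -0.29 to 0.15 for Il1rap and from -0.031 to 0.17 for Casp1. Il18 was also -0.023 in limma-trend on log2(RPKM + 0.1) and -0.021 on log2(RPKM + 1), with or without a filter, and -0.012 without scaling, and Il1rap was 0.35 with unique reads. The causes were not tested.

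Over all genes, the 2 called by edgeR from exon reads became 181 with DESeq2, 8 without a filter, 1 in each limma-trend fit and 2 to 10 leaving out a library. The pathway count of 12 ran from 5 to 17 (5 without adult 3). The 52 genes called from intron reads became 152 with DESeq2, 271 without a filter and 1 to 131 leaving out a library (1 without adult 2, 131 without infant 1). Of the members, intron reads called 1 with DESeq2, 3 without a filter (Il1b, Il1r2 and Il1rn) and 0 to 1 leaving out a library. Intron log2 fold changes over libraries left out ran from -0.68 to 0.20 for Il18, from -0.26 to 0.086 for Casp1 and from -0.20 to 0.56 for Il1rap, and stayed negative for Il1b, Il1r2, Il1rn and Nlrp3. For the intron against exon difference, the 3 genes called over all ran from 0 to 72, Nlrp3 from -0.69 to 0.10 and Il18 from -0.60 to 0.077. The ratio of Il1b to Il1a ran from -0.53 to 0.068 (0.068 without infant 2). Few reads limit Il1r1, Nlrp3 and Il1rap, and the intron reads of every member but Il1b and Casp1.

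The labels give no pairing behind the replicate numbers. Same-numbered deviations over all tested genes correlated at 0.033, -0.035 and 0.10, which cannot show whether libraries were paired. With the replicate block the exon log2 fold change of Il1r2 was 0.38 (SE 0.26, against 0.45 without it). That of Il18bp was -0.30 (SE 0.17, against 0.23). For the other members the SE was larger with the block. With the replicate block edgeR called 1 gene from exon reads and 13 from intron reads, 0 members in either, and the intron value of Il18 was 0.030.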
